A study of Mus musculus with 8 samples.

Results

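The 9 genes described here are Lpl, Plin4, Pnpla2, Lipe, Mgll, Aqp7, Gpd1, Pck1 and Dgat1. They encode enzymes, a channel and a lipid droplet coat protein with which a fat cell takes up, stores, splits and rebuilds triglyceride and handles its glycerol. They were chosen by symbol, and all 9 were found among the 16464 genes of the deposited table. RNA came from the posterior capsule of the knee of male C57BL/6 mice of wild-type genotype, 10 weeks old. In the cast group (4 libraries) a cast had held the knee at 140 degrees for 2 weeks, from 8 weeks of age. The naive group (4 libraries) is labelled as naive, with no cast. The labels give neither which library came from which mouse nor whether any mice were pooled, so the p-values given here reflect spread between libraries that may be technical. All animals shared strain, sex, genotype and age at collection.

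In fat cells, triglyceride is split in sequence by adipose triglyceride lipase (Pnpla2), hormone-sensitive lipase (Lipe) and monoglyceride lipase (Mgll), under beta-adrenergic stimulation through cyclic AMP and under restraint by insulin. The glycerol released leaves through the water and glycerol channel aquaglyceroporin 7 (Aqp7). White fat cells phosphorylate glycerol poorly, and they make the glycerol 3-phosphate needed for new triglyceride from glucose, through glycerol-3-phosphate dehydrogenase (Gpd1), or from pyruvate by glyceroneogenesis, which depends on cytosolic phosphoenolpyruvate carboxykinase (Pck1). Several of these genes are textbook targets of PPAR gamma, the nuclear receptor that drives fat cell differentiation.

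Upstream sequence is shown for the 4 genes of the set that passed the test below, as the 250 bases before a RefSeq transcript start (GRCm38.p6, 5′ to 3′ on the strand of the gene). Capitals mark the letters AGGTCA, the core of nuclear receptor elements, or TGACG, the core of cyclic AMP response elements, on either strand. RefSeq lists a further start for Aqp7 and for Lipe. Each of the 4 starts shown lies inside the annotated gene, that of Lipe farthest in, and only the Lipe window shown holds no annotated exon.
Pck1, chr2:173152823-173153072, plus strand: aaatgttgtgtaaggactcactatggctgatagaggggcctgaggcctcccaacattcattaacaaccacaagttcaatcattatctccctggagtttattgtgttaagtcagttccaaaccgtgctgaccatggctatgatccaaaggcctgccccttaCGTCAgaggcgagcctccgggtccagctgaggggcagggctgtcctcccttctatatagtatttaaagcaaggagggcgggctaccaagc
Aqp7, chr4:41048137-41048386, minus strand: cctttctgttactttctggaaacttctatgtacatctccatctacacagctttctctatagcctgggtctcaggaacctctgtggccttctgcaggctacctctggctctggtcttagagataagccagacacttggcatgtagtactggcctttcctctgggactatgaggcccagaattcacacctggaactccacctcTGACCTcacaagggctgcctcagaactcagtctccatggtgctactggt
Plin4, chr17:56109783-56110032, minus strand: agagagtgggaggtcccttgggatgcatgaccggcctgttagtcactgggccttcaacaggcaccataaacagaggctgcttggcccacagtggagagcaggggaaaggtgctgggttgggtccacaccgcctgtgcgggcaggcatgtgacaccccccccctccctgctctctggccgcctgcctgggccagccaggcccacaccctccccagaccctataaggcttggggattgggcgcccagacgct
Lipe, chr7:25390113-25390362, minus strand: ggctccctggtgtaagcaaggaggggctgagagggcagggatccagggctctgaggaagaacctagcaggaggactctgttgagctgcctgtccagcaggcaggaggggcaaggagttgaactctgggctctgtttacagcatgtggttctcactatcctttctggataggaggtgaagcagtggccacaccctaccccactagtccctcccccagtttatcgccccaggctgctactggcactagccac
The Pck1 window held TGACG, written here as its reverse complement, 90 bases before the start, and the Aqp7 window held AGGTCA, again as its reverse complement, 49 bases before it. The window of the further Aqp7 start, which overlaps the one shown, held AGGTCA 223 and 101 bases before that start. That of the further Lipe start held neither motif. Of all 32851 windows of this length, 17.8% held TGACG and 14.02% held AGGTCA. The letters AGGTCA repeated in the same direction with 1 letter between, the usual PPAR gamma element, were in 0.0335% of all windows and in none of the 9 windows matched for 6 of the 9 genes. These letter matches describe sequence only, and the motif TGACG was added after the values of the genes were seen.

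Whole reads recovered from the table numbered 5956148 to 7381255 in 7 libraries and 1503880 in naive replicate 4. Fibroblast genes were abundant throughout, with summed levels of 24819.9 to 42440.4 in cast and 22508 to 41351 in naive libraries. Muscle genes summed to 54.9 to 885 in cast libraries and to 3381 to 6709.7 in naive replicates 1 to 3, but to 189 in naive replicate 4. Red cell genes summed to 6056 to 29736 in cast and 1727 to 2986 in naive libraries. Limma called 12% of all genes tested in either direction.

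Cast capsules were set against naive capsules to see which of these genes differ after the knee has been immobile. Pck1, Plin4, Lipe and Aqp7 fell in cast capsules, and the other 5 genes did not pass the test. Pck1 had the lowest log2 fold change of the 9 with all 8 libraries, and its level in cast capsules was 21.8% of that in naive capsules. The levels of Plin4, Lipe and Aqp7 in cast capsules were 35.8%, 43.4% and 42.6% of the naive level. Pnpla2 and Dgat1 were at 85.4% and 94.7% of it, with overlapping groups.

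By limma with Benjamini-Hochberg adjustment over 15120 genes, 4 of the 9 genes were lower in cast capsules (adjusted p at most 0.05), beside 5.46% of all genes tested. None of the 9 rose by limma, edgeR or DESeq2, and limma gave 0 of them a rise at an unadjusted p under 0.05. In 5 of the 9, these 4 and Mgll, all 4 cast libraries lay below all 4 naive libraries, beside 9.39% of all genes tested. The log2 fold changes of the 9 had a median of -1.28 and were all below 0, against a median of 0.07 over all genes tested. Levels are the deposited normalised read counts, and each log2 fold change subtracts the naive mean of log2(value + 1) from the cast mean. In bulk tissue, fewer fat cells and less RNA per fat cell cannot be told apart.

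**Figure D1:**
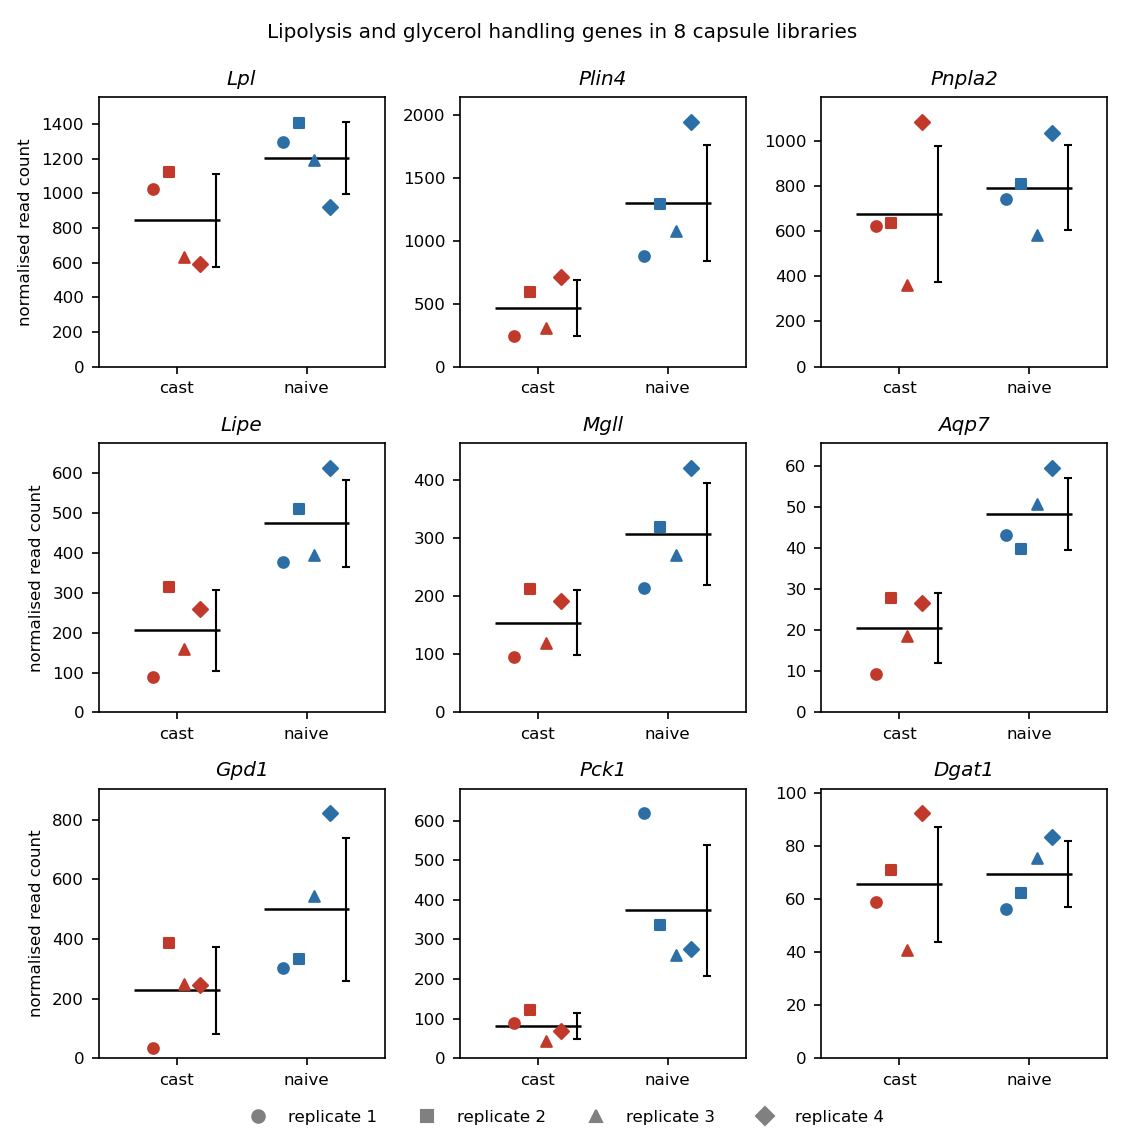
Normalised read counts (vertical axes, linear, from 0) of the 9 genes in cast libraries, left in each panel, and naive libraries, right. Each point is 1 library and its shape the replicate number, the horizontal line is the group mean and the bar beside it the SD (n = 4 each); the groups are apart in Plin4, Lipe, Mgll, Aqp7 and Pck1 and overlap in Lpl, Pnpla2, Gpd1 and Dgat1.

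Lipoprotein lipase (Lpl; chromosome 8, 68880491 to 68907448, plus strand, GRCm38), which frees fatty acids from circulating triglyceride at the capillary wall, had levels of 1024, 1125, 632 and 595 in cast replicates 1 to 4, against 1299.8, 1408, 1192 and 924 in naive replicates 1 to 4. Cast replicates 1 and 2 were within the naive range and cast replicates 3 and 4 below it. The difference did not pass the test (log2 fold change -0.55, SE 0.27, adjusted p = 0.234, 95% interval -1.16 to 0.06). Of 15 tested genes of fat uptake, Angptl4, Apoe and Fabp5 rose and 0 fell by limma, with 3 lower at an unadjusted p under 0.05 and 1 lower by edgeR and 1 by DESeq2 (median -0.08; 6.51% of all genes tested rose). Angptl4, a secreted inhibitor of lipoprotein lipase, averaged 265 ± 66.8 in cast and 89.9 ± 57.2 in naive capsules (SD, n = 4 each; log2 fold change 1.75, SE 0.43, adjusted p = 0.0287). Apoe, a lipoprotein component made in quantity by macrophages, averaged 2877 ± 531 in cast and 1393 ± 606 in naive capsules (SD, n = 4 each; log2 fold change 1.12, limma adjusted p = 0.0494). Fabp5, a fatty acid binding protein found in macrophages and epidermis, averaged 46.6 ± 14.1 in cast and 20.04 ± 5.42 in naive capsules (limma adjusted p = 0.0226). Each of these 3 calls was lost when certain single libraries were left out: that of Apoe without any 1 of the 7 libraries other than naive replicate 4 (highest adjusted p = 0.137), that of Angptl4 without cast replicate 2, 3 or 4 or naive replicate 3 (highest 0.0835), and that of Fabp5 without cast replicate 1 or 3 or naive replicate 2 or 3 (highest 0.074). Gpihbp1, which anchors lipoprotein lipase to capillaries, ranged over 10.5 to 34.1 in cast and 7.9 to 15.5 in naive libraries (adjusted p = 0.298). Among 10 endothelial markers 0 passed by limma or edgeR and 1 by DESeq2, and 1 had an unadjusted limma p under 0.05. Among 10 macrophage markers, which summed to 4257 to 5805 in cast and 2629 to 5491 in naive libraries, 0 passed by limma or edgeR and 1 by DESeq2, and 3 had an unadjusted limma p under 0.05. Naive replicates 1 to 3 summed to 2629 to 3764, below every cast library. Without naive replicate 4 limma called 3 of the 10 higher, beside 1382 of the 15148 genes tested in that fit. The part of macrophages in the rises of Apoe and Fabp5 was not tested.

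Perilipin 4 (Plin4; chromosome 17, 56100591 to 56109803, minus strand), a coat protein of small lipid droplets in fat cells and muscle, had levels of 244, 597, 308 and 714 in cast replicates 1 to 4, against 883, 1295, 1079 and 1946 in naive replicates 1 to 4. The cast libraries spread over a 2.92-fold range and the naive libraries over a 2.21-fold range without meeting. Plin4 fell by 1.55 on the log2 scale (SE 0.38, limma adjusted p = 0.0295). The call was lost without cast replicate 1 or 3 or naive replicate 2 or 3 (adjusted p = 0.0621, 0.0933, 0.0748 and 0.061). An exon of Plin4 overlaps Hdgfl2 on the opposite strand, and whether counting used the strand is not given in the sources used here. Hdgfl2, listed as Hdgfrp2, was lower in level, at 19.6 to 24.4 in cast and 16.3 to 29.1 in naive libraries. Of 16 tested muscle genes, 6 fell by limma, 10 by edgeR and 12 by DESeq2, beside 5.46%, 6.2% and 8.54% of all genes tested. Without naive replicate 4, 16 fell by limma, beside 8.47%. In naive replicate 4 the level of Plin4 was the highest of all 8 libraries and the summed level of muscle genes, 189, was within the cast range. With muscle level as a covariate, Plin4 had a log2 fold change of -2.31 (limma adjusted p = 0.0112). Beyond that fit, the part of muscle in the fall of Plin4 was not tested.

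Of 28 tested genes of lipolysis control and the lipid droplet, 5 fell, Adra2a rose and 22 did not pass by limma, with a median of -0.75. By edgeR 5 fell and 1 rose, and by DESeq2 11 fell and 1 rose. Of all genes tested, 5.46% fell by limma, 6.2% by edgeR and 8.54% by DESeq2. At an unadjusted limma p under 0.05, 15 genes of the list were lower and 1 was higher. Pnpla3, a relative of Pnpla2 induced by feeding, had levels of 0.494, 26.1, 10.5 and 3.2 in cast replicates 1 to 4, against 126, 149, 243 and 349 in naive replicates 1 to 4 (log2 fold change -4.92, SE 0.77, adjusted p = 0.00444). Adrb3, the beta-3 adrenergic receptor of fat cells, had levels of 0.989, 8.69, 6.95 and 6.94 in cast replicates 1 to 4, against 43.5, 48.1, 51.3 and 79.6 in naive replicates 1 to 4 (log2 fold change -3.22, SE 0.47, adjusted p = 0.00304). No cast library came near a naive library in either gene. Ptger3, a prostaglandin E2 receptor that lowers cyclic AMP, averaged 4.71 ± 1.51 in cast and 20.4 ± 6.68 in naive capsules (SD, n = 4 each; log2 fold change -1.89, SE 0.29, adjusted p = 0.00388). Plin1, the main droplet coat of fat cells, averaged 159 ± 85.8 in cast and 484 ± 136 in naive capsules (log2 fold change -1.78, SE 0.46, adjusted p = 0.0337), and Cidea, a droplet protein prominent in brown fat, averaged 2.55 ± 1.4 in cast and 10.1 ± 5.79 in naive capsules (adjusted p = 0.0338). Of 7 tested brown fat markers Cidea and Cox7a1 fell by limma and 5 did not pass, with 3 lower by edgeR and 4 by DESeq2. None rose by limma, edgeR or DESeq2, with 0 higher at an unadjusted limma p under 0.05. Log2 fold changes were above 0 in 3 of these markers and below 0 in 4. Their summed levels overlapped, at 82.6 to 214 in cast and 86.0 to 182 in naive libraries. The calls of Pnpla3, Adrb3 and Ptger3 held in all 8 fits that left out 1 library. That of Plin1 was lost without cast replicate 3 or naive replicate 2 or 3 (highest adjusted p = 0.0843), and that of Cidea without cast replicate 2, 3 or 4 or naive replicate 1 or 2 (highest 0.0934). Adra2a, the alpha-2A adrenergic receptor, which restrains lipolysis in human fat cells, averaged 10.2 ± 1.98 in cast and 4.69 ± 2.14 in naive capsules (adjusted p = 0.0489), a call lost without any 1 of the 7 libraries other than naive replicate 4 (highest adjusted p = 0.142). Cidec, which fuses droplets, averaged 256 ± 162 in cast and 569.5 ± 191 in naive capsules (adjusted p = 0.0753) and did not pass. This list had 9 lower genes when naive replicate 4 was left out. That fit called 8.47% of all genes tested lower, against 5.46% with all 8 libraries.

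Adipose triglyceride lipase (Pnpla2; chromosome 7, 141455198 to 141460743, plus strand), which takes the first fatty acid off triglyceride, had levels of 624, 635, 362 and 1083 in cast replicates 1 to 4, against 742, 807, 583 and 1034 in naive replicates 1 to 4. Cast replicate 4 was the highest of all 8 libraries and cast replicate 3 the lowest, and the difference did not pass (log2 fold change -0.30, SE 0.33, adjusted p = 0.602, 95% interval -1.04 to 0.43). Its activator Abhd5, also called CGI-58, ranged over 78.4 to 148 in cast and 73.7 to 99.6 in naive libraries, and its inhibitor G0s2 over 6.92 to 62.9 in cast and 29.8 to 63.4 in naive libraries. Neither passed (adjusted p = 0.571 for Abhd5 and 0.799 for G0s2).

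Hormone-sensitive lipase (Lipe; chromosome 7, 25379527 to 25398710, minus strand), which acts mainly on diglyceride, had levels of 88.3, 314, 159.9 and 259.7 in cast replicates 1 to 4, against 378, 509, 395 and 613 in naive replicates 1 to 4. Every cast library was below every naive library, with cast replicate 1 the lowest. Lipe fell by 1.33 on the log2 scale (SE 0.37, limma adjusted p = 0.0463), close to the threshold of 0.05. Its adjusted p was 0.0638, 0.125 and 0.0515 without cast replicate 1, 3 or 4 and 0.0662, 0.112, 0.0823 and 0.0578 without naive replicate 1, 2, 3 or 4, so the call held only without cast replicate 2 (0.0355) among the fits that left out 1 library. By edgeR on recovered reads the adjusted p was 0.0529 and by DESeq2 0.0101. An exon of Lipe overlaps 4732471J01Rik on the opposite strand, which stood at 2.18 to 4.2 in cast and 3.88 to 8.71 in naive libraries.

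Monoglyceride lipase (Mgll; chromosome 6, 88724412 to 88828360, plus strand), which frees the last fatty acid and glycerol, had levels of 95.8, 212, 119 and 192 in cast replicates 1 to 4, against 214, 319, 272 and 422 in naive replicates 1 to 4. The groups were apart by a narrow margin, between cast replicate 2 and naive replicate 1. Mgll did not pass by limma (log2 fold change -1.01, SE 0.30, adjusted p = 0.0563), with an adjusted p of 0.0563 by edgeR and 0.0145 by DESeq2. An exon of Mgll overlaps Gm26588 on the opposite strand. The log2 level of Lipe minus that of Pnpla2, a pair chosen after their values were seen, was -1.76 ± 0.83 in cast and -0.74 ± 0.18 in naive libraries (SD, n = 4 each), which is a description with no test. The highest cast value, -1.02, was just below the lowest naive value, -0.97.

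Aquaglyceroporin 7 (Aqp7; chromosome 4, 41033074 to 41048139, minus strand), through which glycerol leaves the fat cell, had levels of 9.39, 27.7, 18.5 and 26.5 in cast replicates 1 to 4, against 43.1, 39.7, 50.8 and 59.5 in naive replicates 1 to 4. It rested on the fewest reads of the 9 genes, 577 in cast and 931 in naive libraries in all. Aqp7 fell by 1.28 on the log2 scale (SE 0.32, limma adjusted p = 0.0296). Its call was lost without cast replicate 3 or naive replicate 1, 2 or 3 (adjusted p = 0.0817, 0.0536, 0.057 and 0.0766). Aqp9, a glycerol channel of liver that is also found in leukocytes, rose and was low in level, at 3.36 ± 1.36 in cast and 0.749 ± 0.554 in naive capsules (SD, n = 4 each; log2 fold change 1.34, SE 0.32, adjusted p = 0.025), a call that did not hold without cast replicate 2 or 3 or naive replicate 3 (highest adjusted p = 0.0691). Cast replicate 2 had the most Aqp9, 5.4. Neutrophil genes rose in the same libraries, with 8 of 11 higher and summed levels of 688 to 6141 in cast and 23.3 to 68.9 in naive libraries. Their part in the rise of Aqp9 was not tested. Glycerol kinase, listed by its older symbol Gyk, stood at 11.3 to 23.6 in cast and 1.94 to 8.74 in naive libraries. Every cast library was above every naive library, but Gyk did not pass the test (log2 fold change 1.36, limma adjusted p = 0.0562). Of the 8 fits that left out 1 library, Gyk passed only without naive replicate 4, its lowest library (log2 fold change 0.95, limma adjusted p = 0.0253). In the others its adjusted p was 0.0613 to 0.136.

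Glycerol-3-phosphate dehydrogenase (Gpd1; chromosome 15, 99717515 to 99725005, plus strand), which makes glycerol 3-phosphate from a glycolytic intermediate, had levels of 33.1, 387, 249 and 244 in cast replicates 1 to 4, against 302, 332, 546 and 821 in naive replicates 1 to 4. Cast replicate 1 was far below the rest, and cast replicate 2 was above naive replicates 1 and 2. The spread within groups was the widest of the 9 genes, with a coefficient of variation of 63.9% in cast and 47.99% in naive libraries. The difference did not pass (log2 fold change -1.45, SE 0.69, adjusted p = 0.212, 95% interval -2.99 to 0.08), and without cast replicate 1 it was -0.68 (adjusted p = 0.299). An exon of Gpd1 overlaps Gm16537 on the opposite strand.

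Cytosolic phosphoenolpyruvate carboxykinase (Pck1; chromosome 2, 173153048 to 173159273, plus strand), the regulated enzyme of glyceroneogenesis, had levels of 90.2, 123, 42.7 and 69.8 in cast replicates 1 to 4, against 618, 337, 261 and 277 in naive replicates 1 to 4. The highest cast library had less than any naive library, and naive replicate 1 stood above the other naive libraries. Pck1 fell by 2.19 on the log2 scale (SE 0.36, 95% interval -3.00 to -1.39, limma adjusted p = 0.00546). It passed in all 8 fits that left out 1 library, with log2 fold changes of -2.42 to -1.92 and adjusted p up to 0.0193. Pck2, the mitochondrial form, ranged over 19.4 to 27.7 in cast and 15.2 to 23.9 in naive libraries (limma adjusted p = 0.431). The log2 level of Pck1 minus that of Pck2 was 1.65 ± 0.66 in cast and 4.12 ± 0.62 in naive libraries (SD, n = 4 each; chosen after the values were seen and not tested).

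Of 14 tested genes of glycerol metabolism and glyceroneogenesis, 3 fell, Aqp9 rose and 10 did not pass by limma (median -0.20). Of all genes tested, 5.46% fell and 6.51% rose by limma. Pcx, pyruvate carboxylase, supplies the oxaloacetate that Pck1 uses. It had levels of 138, 236, 155 and 166 in cast replicates 1 to 4, against 593, 643, 541 and 893 in naive replicates 1 to 4 (log2 fold change -1.94, SE 0.23, adjusted p = 0.00112). Slc25a1, the mitochondrial citrate carrier, averaged 50.2 ± 24.7 in cast and 170.2 ± 72.5 in naive capsules (limma adjusted p = 0.0142), and Slc25a10, the dicarboxylate carrier, 46.3 ± 19.4 in cast and 158 ± 67.6 in naive capsules (limma adjusted p = 0.013; SD, n = 4 each). Naive replicate 4 had the most Slc25a1, 278. All 3 genes passed in each fit that left out 1 library, with adjusted p up to 0.00674 for Pcx, 0.0396 for Slc25a1 and 0.0428 for Slc25a10.

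Diacylglycerol acyltransferase 1 (Dgat1; chromosome 15, 76502015 to 76511953, minus strand), which closes triglyceride synthesis and re-esterifies fatty acids released by lipolysis, had levels of 58.7, 70.9, 40.6 and 92.2 in cast replicates 1 to 4, against 56.1, 62.3, 75.4 and 83.4 in naive replicates 1 to 4. The cast libraries included both the highest and the lowest of the 8 (log2 fold change -0.12, SE 0.25, adjusted p = 0.797, 95% interval -0.69 to 0.45). Dgat2, the unrelated enzyme of the same step, had levels of 12.9, 154, 74.2 and 53.3 in cast replicates 1 to 4, against 294, 519, 424 and 621 in naive replicates 1 to 4. Each cast library was below each naive library (log2 fold change -3.04, SE 0.62, adjusted p = 0.0133), and the call held in all 8 fits that left out 1 library. The log2 level of Dgat2 minus that of Dgat1 was -0.23 ± 1.504 in cast and 2.69 ± 0.32 in naive libraries (SD, n = 4 each; likewise not tested). Of 14 tested genes of glycerolipid assembly, Dgat2 and Agpat2 fell by limma and 12 did not pass (median -0.55). By edgeR 4 fell, beside 6.2% of all genes tested, and by DESeq2 6, beside 8.54%. None rose by limma, edgeR or DESeq2, with 1 higher and 7 lower at an unadjusted limma p under 0.05. Agpat2, which adds the middle fatty acid, averaged 52.6 ± 21.9 in cast and 165 ± 48.00 in naive capsules (SD, n = 4 each; limma adjusted p = 0.00847). Leaving out naive replicate 4 gave 4 lower genes in this list, in a fit that called 8.47% of all genes tested lower, against 5.46% with all libraries.

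Over the 4 further lists, 10 of 71 tested genes fell and 5 rose, which is 14.1% and 7.04%, against 5.46% and 6.51% of all genes tested.

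**Figure D2:**
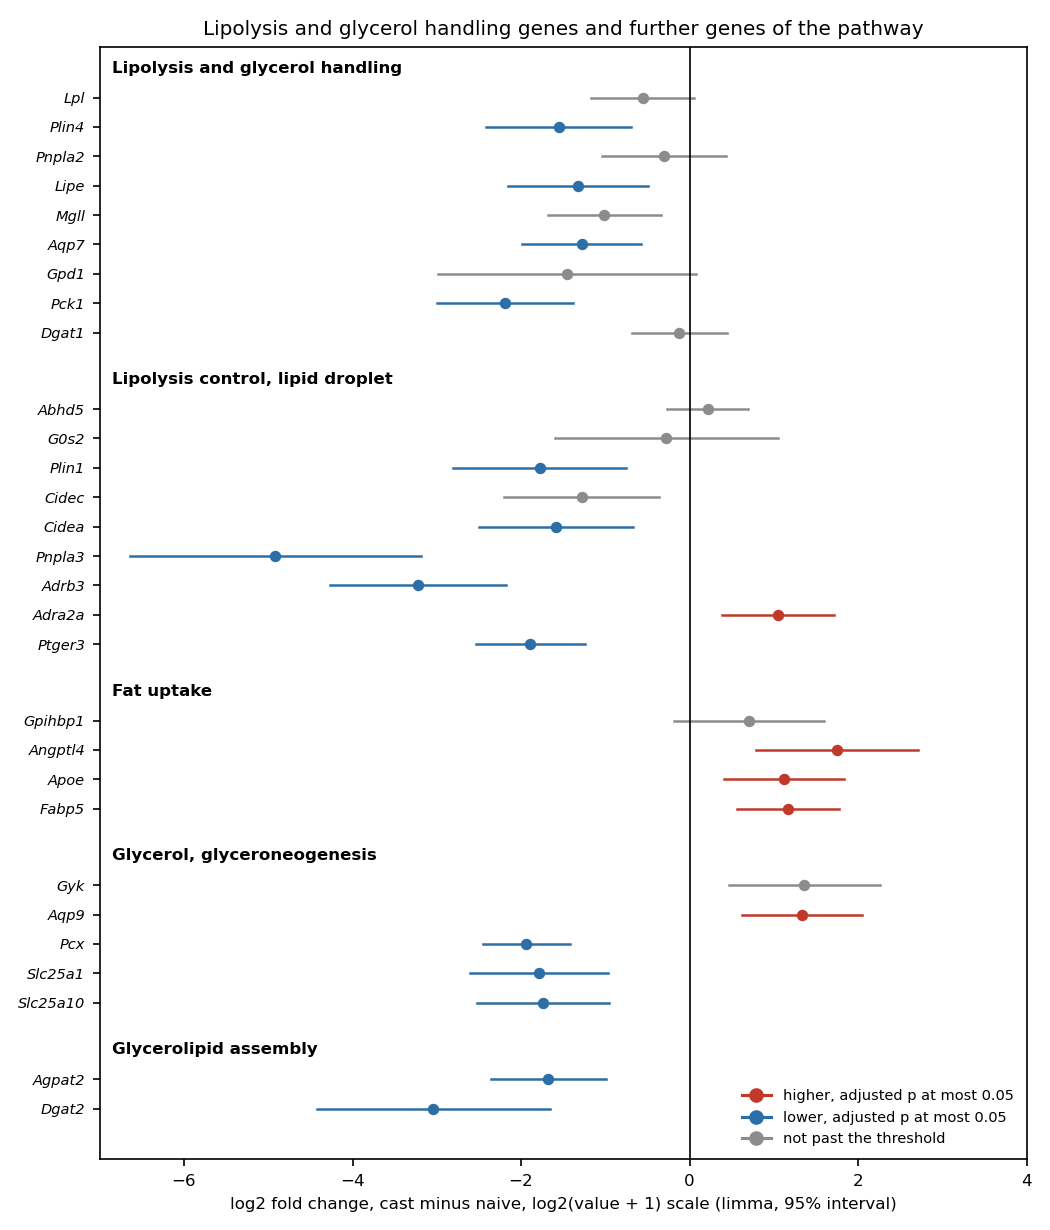
Log2 fold changes, cast minus naive (horizontal axis, log2(value + 1) scale), with limma 95% intervals as lines, for the 9 genes and for further genes of the pathway that passed the test or belonged to a fixed panel. Among the genes shown Pnpla3 is farthest to the left at -4.92, and Pck1 leads the 9 genes at -2.19. To the right of 0 lie Angptl4, Apoe, Fabp5, Aqp9 and Adra2a, which passed, and Gyk (1.36), Gpihbp1 (0.71) and Abhd5 (0.21), which did not.

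Levels were compared between genes per kilobase of the longest coding transcript (GENCODE M21). On that scale Pnpla2 led with 257 ± 114 in cast and 301 ± 71.3 in naive capsules (SD, n = 4 each, also below), followed by Lpl with 205 ± 65.5 in cast and 293 ± 50.4 in naive capsules. Pck1 had 30.6 ± 12.7 in cast and 140.3 ± 62.6 in naive capsules, which placed it next to last in cast capsules and between Gpd1 and Lipe in naive capsules. Aqp7 was last in both, with 8.13 ± 3.36 in cast and 19.1 ± 3.49 in naive capsules. In cast capsules the order was Pnpla2, Lpl, Plin4, Gpd1, Lipe, Mgll, Dgat1, Pck1 and Aqp7, and neighbours in it had overlapping libraries except Lpl and Plin4, and Pck1 and Aqp7. In naive capsules the order was Pnpla2, Lpl, Plin4, Gpd1, Pck1, Lipe, Mgll, Dgat1 and Aqp7, and neighbours overlapped except Mgll and Dgat1, and Dgat1 and Aqp7.

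The libraries of a group did not vary alike in all 9 genes. Cast replicate 1 was the lowest cast library in 5 genes (Plin4, Lipe, Mgll, Aqp7 and Gpd1), and cast replicate 3 in Pnpla2, Pck1 and Dgat1. Naive replicate 4, the shallowest library, was the highest naive library in 7 genes and the lowest in Lpl. Across the 8 libraries, mean-centred log2 profiles of Lipe differed from those of Aqp7, Plin4 and Mgll by a root mean square of 0.22, 0.24 and 0.26 log2 units. Pnpla2 and Dgat1 differed by 0.27, and Pck1 was 0.83 or more from every other gene of the 9. Outside the set, the profiles near to Lipe among 11298 genes included those of Cadm3 (0.17) and Cebpa (0.20), where the median gene was at 0.92. Nearest to Pck1 were Itih5 (0.36), Prelp (0.40) and Ces1d (0.42), with the median gene at 1.28. These distances describe 8 libraries in which the group difference itself takes part.

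Of 16 tested fat cell identity genes, 9 fell by limma (median -1.18), beside 5.46% of all genes tested, and 7 did not pass. None rose by limma, edgeR or DESeq2, with 0 higher at an unadjusted limma p under 0.05. The 9 were Lep, Pparg, Cebpa, Plin1, Slc2a4, Adrb3, Acvr1c, Thrsp and Tmem120b, of which Plin1 and Adrb3 are also in the lipolysis control list. Cast and naive libraries overlapped in Slc2a4 and Acvr1c. Of the 8 fits that left out 1 library, Adrb3 passed in 8, Tmem120b in 6 and Lep and Plin1 in 5. Cebpa and Slc2a4 passed in 3, and Pparg, Acvr1c and Thrsp in 2. Adipoq, which encodes adiponectin, ranged over 135 to 606 in cast and 431 to 676 in naive libraries and did not pass (adjusted p = 0.253). Pparg fell, averaging 51.8 ± 12.6 in cast and 94.1 ± 18.02 in naive capsules (SD, n = 4 each; log2 fold change -0.86, SE 0.22, adjusted p = 0.0346), and lost its call without cast replicate 1, 2 or 3 or naive replicate 1, 2 or 3 (highest adjusted p = 0.0986). The list's summed level was 2774 to 12555 in cast and 9479 to 15164 in naive libraries.

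Each gene was also set against a fat cell index, the mean log2(value + 1) of Adipoq, Cfd, Plin1, Cidec, Fabp4 and Pparg, as a description with no test. The index was 7.41, 8.65, 8.19 and 9.20 in cast replicates 1 to 4, against 9.04, 9.16, 9.22 and 9.50 in naive replicates 1 to 4. Relative to it, Plin4 was lower in every cast library (0.08 to 0.57) than in any naive library (0.75 to 1.42). Dgat1 was higher in every cast library (-2.81 to -1.51) than in any naive library (-3.20 to -2.97). The other 7 genes overlapped. Pck1 averaged -2.10 ± 0.99 in cast and -0.77 ± 0.72 in naive libraries, a difference of -1.32, and Lipe and Aqp7 differed by -0.46 and -0.41. Fabp4, which endothelial cells and macrophages also make, did not pass (adjusted p = 0.315; 986 to 2696 in cast and 887 to 1109.8 in naive libraries). Leaving it out of the index, a choice made after seeing the data, moved the differences of Pck1, Lipe and Aqp7 to -1.04, -0.18 and -0.13, kept Dgat1 apart and let Plin4 overlap. Without Fabp4 the index itself was 6.90 to 8.76 in cast and 8.82 to 9.44 in naive libraries, with no overlap. Its cast minus naive difference was -1.15, against -0.87 with Fabp4.

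**Figure D3:**
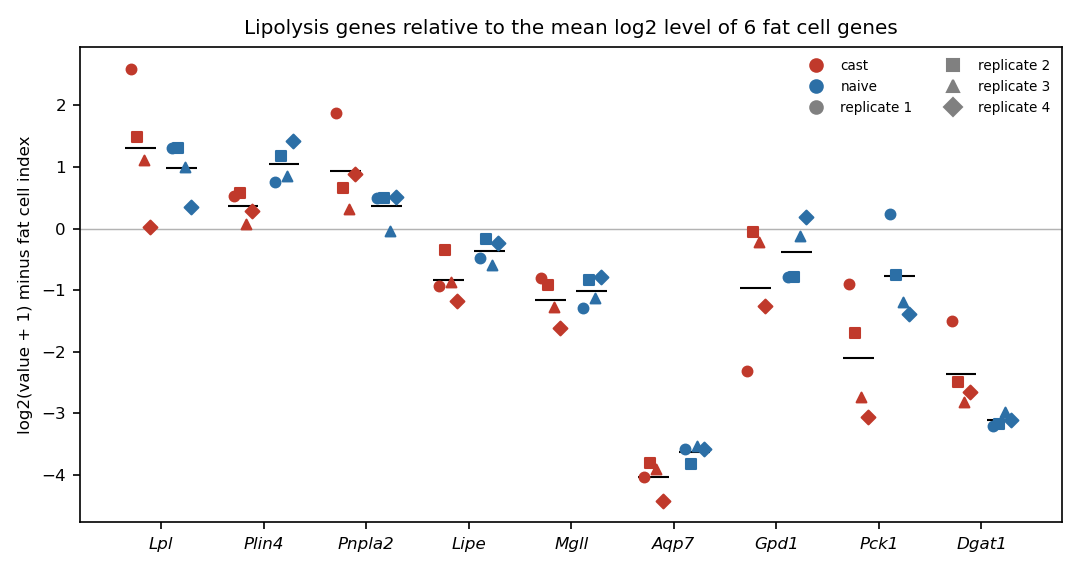
Level of each gene relative to the fat cell index (vertical axis, log2 units), cast libraries left and naive libraries right of each gene's mark, 1 point per library with its replicate number as shape and the group mean as a line. Plin4 lies lower and Dgat1 higher in all cast libraries, and the other 7 genes overlap.

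The calls differed in how far they rested on single libraries and settings. Among 23 alternative fits, Pck1 passed in 23, Plin4 in 18, Aqp7 in 18, Lipe in 11 and Mgll in 4. Gpd1 and Lpl each passed in 1, and Pnpla2 and Dgat1 in 0 of them, edgeR and DESeq2 included. Without cast replicates 1 and 2, in which Mpo, a gene of neutrophil precursors, stood at 55.05 and 144 against at most 0.273 in the other cast libraries, an alternative chosen after seeing the data, Pck1 alone of the 9 passed (log2 fold change -2.66, limma adjusted p = 0.0165). That fit called 2.29% of all genes tested lower. With muscle level as a covariate, 6 of the 9 were lower, beside 9.44% of all genes tested, and Pck1 had a log2 fold change of -1.85 (limma adjusted p = 0.0302), below which lay those of Gpd1 (-3.13), Plin4 (-2.31), Lipe (-2.10) and Aqp7 (-1.88). By edgeR 3 of the 9 were lower, beside 6.2%, by DESeq2 5, beside 8.54%, and with array weights 6, beside 12%. Without cast replicate 1, 2, 3 or 4 in turn, 2, 4, 1 and 3 of the 9 were lower, beside 4.65%, 3.71%, 2.68% and 3.79% of all genes tested. Without naive replicate 1, 2, 3 or 4 in turn, 2, 1, 1 and 3 were lower, beside 4.28%, 2.92%, 3.16% and 8.47%. Without both naive replicate 4 and cast replicate 1, a choice made after seeing the data, 4 were lower, beside 10.3%, and with replicate number as a block 5 were, beside 3.9%.

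**Figure D4:**
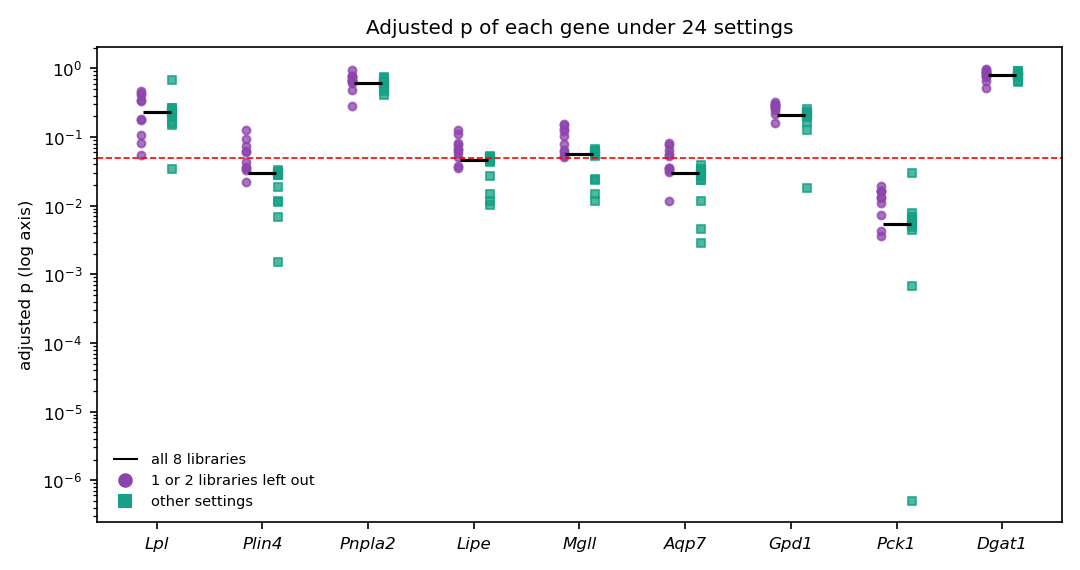
Limma, edgeR or DESeq2 adjusted p (vertical axis, log scale) of each gene in the fit of all 8 libraries (black bar), in fits without 1 or 2 libraries (circles) and under other settings (squares), with the threshold of 0.05 as a dashed line. Pck1 lies below the line throughout, and Pnpla2 and Dgat1 lie above it throughout. Plin4, Lipe and Aqp7 cross it, as do Mgll, below it in 4 of the other fits, and Lpl and Gpd1, below it in 1 each.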

How the data were processed

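The authors deposited a table of signal values, normalised read counts, with 1 value for each gene in each library. Per the labels' protocols, directional libraries were made after removal of ribosomal RNA and read as 150-nt pairs; trimming was by Trimmomatic 0.38, and Bowtie2 run by RSEM mapped reads to hg38 transcripts, a human build. The submitters' processing notes differ: they give Trimmomatic 0.36 and mm10, a mouse build, and also list edgeR. The symbols are those of mouse. Dividing by the smallest step of a library turned 100% of its values into whole numbers within 0.01, so whole reads were recovered.

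After log2(value + 1), 15120 of 16464 genes had a mean of 0.5 or more and were compared between cast and naive by limma-trend, with Benjamini-Hochberg adjustment over all of them and a threshold of 0.05. The 9 genes and the lists were chosen with earlier results of these data known, so no list was tested and no p adjusted over a list. Named were the 9 genes, every gene of the pathway lists past the threshold, a fixed panel (Adipoq, Plin1, Cidec, Abhd5, G0s2, Gpihbp1, glycerol kinase, Dgat2) and the 3 nearest profiles each to Lipe and Pck1, of which 1 is not reported here; others, such as Pparg, Fabp4, Pck2 and the marker genes, were chosen after their values were seen. Older symbols were matched through RefSeq. Positions and transcript lengths are from GENCODE M21 (GRCm38), promoter sequences from RefSeq (GRCm38.p6).

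Alternatives were other pseudocounts (0.5 and 5) and filters, other scalings, limma without a trend, array weights, a muscle covariate, a replicate block, single libraries left out, and edgeR and DESeq2 on recovered reads. With changes simulated for this comparison (15099 genes), 4 of 100 genes changed 2-fold and 82 of 100 changed 4-fold were called by limma. The simulation gave every gene the same dispersion and changed few genes, none of them low in level, where limma called 12% of genes in the real data. The simulated shares therefore do not give the share of real changes that limma would call. Scripts ran in Python 3.11.15 (numpy 2.4.6, matplotlib 3.10.9, pandas 2.3.3) and R 4.3.3 (DESeq2 1.42.0, edgeR 4.0.16, limma 3.58.1).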

Additional observations from a re-analysis of the deposited data

Results flagged for a closer look

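Among 80 groups of 4 libraries, for 40 named genes, 4 held a library far from the other 3 by Dixon's ratio, and chance flags about 1 in 20. None was a group of the 9 genes. Naive replicate 4 was the library apart in 3 of the 4, at 60.2 for Pde3b, 1.94 for glycerol kinase (Gyk) and 278 for Slc25a1. Cast replicate 2 was apart for Aqp9, at 5.4.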

How the results depend on the processing

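Across all genes, 1810 passed, against 3985 with array weights, 4299 with the muscle covariate, 2039 by edgeR, 2754 by DESeq2, 3278 without naive replicate 4 and cast replicate 1, and 717 without cast replicates 1 and 2 (these last 2 chosen after seeing the data). Leaving out 1 library gave 916 (without cast replicate 3) to 2665 genes (without naive replicate 4), with 1010, 1043 and 1143 without naive replicate 2, naive replicate 3 and cast replicate 2. Of the 9 genes, 4 were lower with all libraries and 1 to 4 without 1 library: 2 without cast replicate 1 or naive replicate 1, and 1, namely Pck1, without cast replicate 3 or naive replicate 2 or 3, as also without cast replicates 1 and 2. The cause was not tested. The sign of the log2 fold change was negative in 205 of 207 values over the 9 genes and 23 alternatives; the exceptions were Dgat1 without cast replicate 3 (0.0845) and without naive replicate 4 and cast replicate 1 (0.00522). Without 1 library, Dgat1 ranged from -0.303 to 0.0845. Lipe missed the threshold narrowly with the stricter filter, without a trend, with scaling that left out muscle, red cell and neutrophil genes, and by edgeR (adjusted p = 0.0516, 0.051, 0.0515 and 0.0529). With replicate number as a block, 1371 genes and 5 of the 9 passed, Mgll in addition. The SE of each of the 9 was smaller in that fit, that of Plin4 0.214 against 0.384 and that of Dgat1 0.231 against 0.253. Same-numbered libraries had correlations of deviations of -0.0571 to 0.0797, and 0 of 4 cast libraries correlated best with their own number. With 4 libraries per group these correlations cannot exclude a pairing, so whether the numbers mark pairs is not known. The shallow depth of naive replicate 4 limits low genes most: Aqp7 had 92 reads in it.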

Other observations

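Besides Ptger3 and Adra2a, 3 further genes known to restrain lipolysis in fat cells are given here, chosen after their values were seen. Hcar1, the lactate receptor of fat cells, had levels of 3.3, 25.3, 19.1 and 33.3 in cast replicates 1 to 4, against 39.5, 42.9, 32.4 and 60.2 in naive replicates 1 to 4 (limma adjusted p = 0.153). Adora1, the adenosine A1 receptor, ranged over 3.79 to 31.6 in cast and 19.6 to 45.9 in naive libraries (limma adjusted p = 0.406). In both genes cast replicate 1 was the lowest of the 8 libraries. Pde3b, the phosphodiesterase through which insulin lowers cyclic AMP, had levels of 123, 139, 94.9 and 146 in cast replicates 1 to 4, against 221, 243, 233 and 60.2 in naive replicates 1 to 4 (limma adjusted p = 0.573; 0.00606 without naive replicate 4). Naive replicate 4 was the lowest of all 8 libraries for Pde3b, while the other 3 naive libraries were above every cast library.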
